A study of Mus musculus with 24 samples.

Results

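The clustered protocadherin genes are a family of cell surface adhesion genes that lie side by side on mouse chromosome 18, and this account describes where the transcriptional regulators (TRs) ARID1B, FOXP1 and TCF7L2 were mapped over them in embryonic cortex. Members were the protein-coding genes of the GENCODE vM21 annotation on that chromosome whose symbols name the alpha (Pcdha, with the C-type genes Pcdhac), beta (Pcdhb) or gamma (Pcdhga, Pcdhgb and the C-type Pcdhgc) clusters. This rule took 57 of 21951 protein-coding genes, of which 52 had variable promoters and 5 were C-type. The variable members were 12 alpha, 22 beta, 12 gamma A and 6 gamma B genes, and the C-type members were 2 alpha and 3 gamma genes. The annotation gave the symbol Pcdha11 to 2 gene records, which were counted separately, and Pcdhgb8 was annotated as a polymorphic pseudogene and was not a member.

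Each neuron switches on a small, largely random choice of the variable protocadherin promoters, and the resulting mix of surface proteins lets the branches of 1 neuron recognise and avoid each other. In the alpha and gamma clusters each gene supplies its own large first exon, coding for the extracellular part of the protein, which is spliced onto constant exons shared by the whole cluster, whereas the beta genes have no constant exons. The C-type genes, at the end of the alpha and gamma arrays, are expressed more uniformly between neurons. Promoter choice is known to involve the insulator protein CTCF, the loop-forming cohesin complex, DNA methylation and enhancers that lie downstream of the promoters, including elements between the alpha and beta clusters and beyond the gamma cluster.

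The study mapped the TRs by chromatin immunoprecipitation and sequencing (ChIP-seq) in the cortex of wild-type (WT) mice, a line kept on a CD1 background, at embryonic stages E15.5 and E18.5, here the earlier and the later stage, to ask which genes and regulatory elements the TRs share. Of 24 libraries, 12 were from ChIP with 1 of the antibodies and 12 were input chromatin, 2 for each TR and stage, and no animal carried an engineered allele or received a treatment. The TCF7L2 libraries carry the label TCF4, an alternative name of that protein, and the study's antibody list names TCF7L2. ARID1B is a subunit of the BAF chromatin remodelling complex, FOXP1 is a forkhead transcription factor, and TCF7L2 is a transcription factor of the Wnt pathway. Whole cortex holds many cell types, so a peak in 1 cell type could not be told apart from a weaker one in many.

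The 6 peak lists, 1 per TR and stage, held 71442 (ARID1B E15.5), 64080 (FOXP1 E15.5), 33042 (TCF7L2 E15.5), 68472 (ARID1B E18.5), 24890 (FOXP1 E18.5) and 53219 (TCF7L2 E18.5) peaks. The reads of both replicates were merged before the peaks were called, so no value below has a replicate spread, no difference between lists was tested, and the read depth is unknown. Fold enrichment is the height of the ChIP signal at a peak's summit over the background, and -log10 p is the strength of the peak caller's test of that peak. The lowest fold enrichment listed differed between lists, from 2.33 for ARID1B E15.5 to 3.21 for FOXP1 E18.5, so a weak peak could enter some lists and not others. Folds were set beside other folds of the same list.

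The variable promoters were almost without peaks, while 3 or 4 of the 5 C-type promoters had them, beside 55.0% to 61.8% of all protein-coding genes. A promoter was the 2000 bp upstream of any annotated transcription start site (TSS) of the gene, and a peak sharing at least 1 base with it was counted. Of the 52 variable members, 0 had a promoter peak in the ARID1B and FOXP1 lists of both stages and in the TCF7L2 list of E18.5, and 1 had a promoter peak in the TCF7L2 list of E15.5. Of the 5 C-type members, 4 had a promoter peak of ARID1B at each stage, 4 of FOXP1 at the earlier stage and 3 at the later, and 3 of TCF7L2 at the earlier stage and 4 at the later. The C-type counts changed with the threshold. Requiring a -log10 p of 15 or more left 3, 3 and 1 of them in the earlier lists of ARID1B, FOXP1 and TCF7L2 and 1, 0 and 2 in the later lists, beside 40.1% to 55.0% of all genes. When the summit had to lie in the promoter 2, 2 and 2 were left in the earlier lists and 1, 1 and 2 in the later, beside 44.8% to 50.3%.

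Over all members the count was 4 of 57 for ARID1B E15.5, where 58.8% of all protein-coding genes had a promoter peak. The same count of 4 stood against 61.8% for FOXP1 E15.5, 57.3% for TCF7L2 E15.5, 57.3% for ARID1B E18.5 and 61.2% for TCF7L2 E18.5. For FOXP1 E18.5 it was 3 of 57 against 55.0%. In every list the share of members, 5.26% to 7.02%, was thus far under the share of all genes. All 3 TRs were found at the promoters of 3 members at E15.5, against 55.5% of all genes, and of 3 members at E18.5, against 52.9%. No list gave a promoter peak for 52 of the 57 members, or 91.2%, beside 35.9% of all protein-coding genes.

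**Figure D1:**
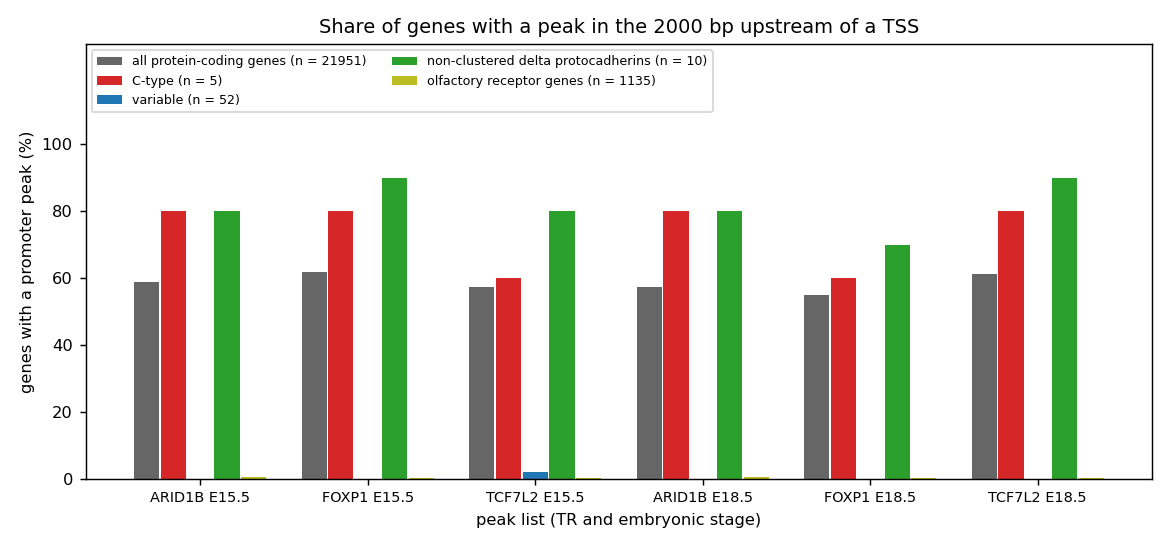
Percentage of genes (vertical axis) with a peak in the 2000 bp upstream of a TSS in each of the 6 peak lists (horizontal axis), for all protein-coding genes, the C-type and the variable clustered protocadherins, the non-clustered delta protocadherins and the olfactory receptor genes; each bar is a count over 1 list and has no error. The variable members are at 0 except for 1 gene in the TCF7L2 E15.5 list, whereas 3 or 4 of the 5 C-type members have a peak.

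**Figure D2:**
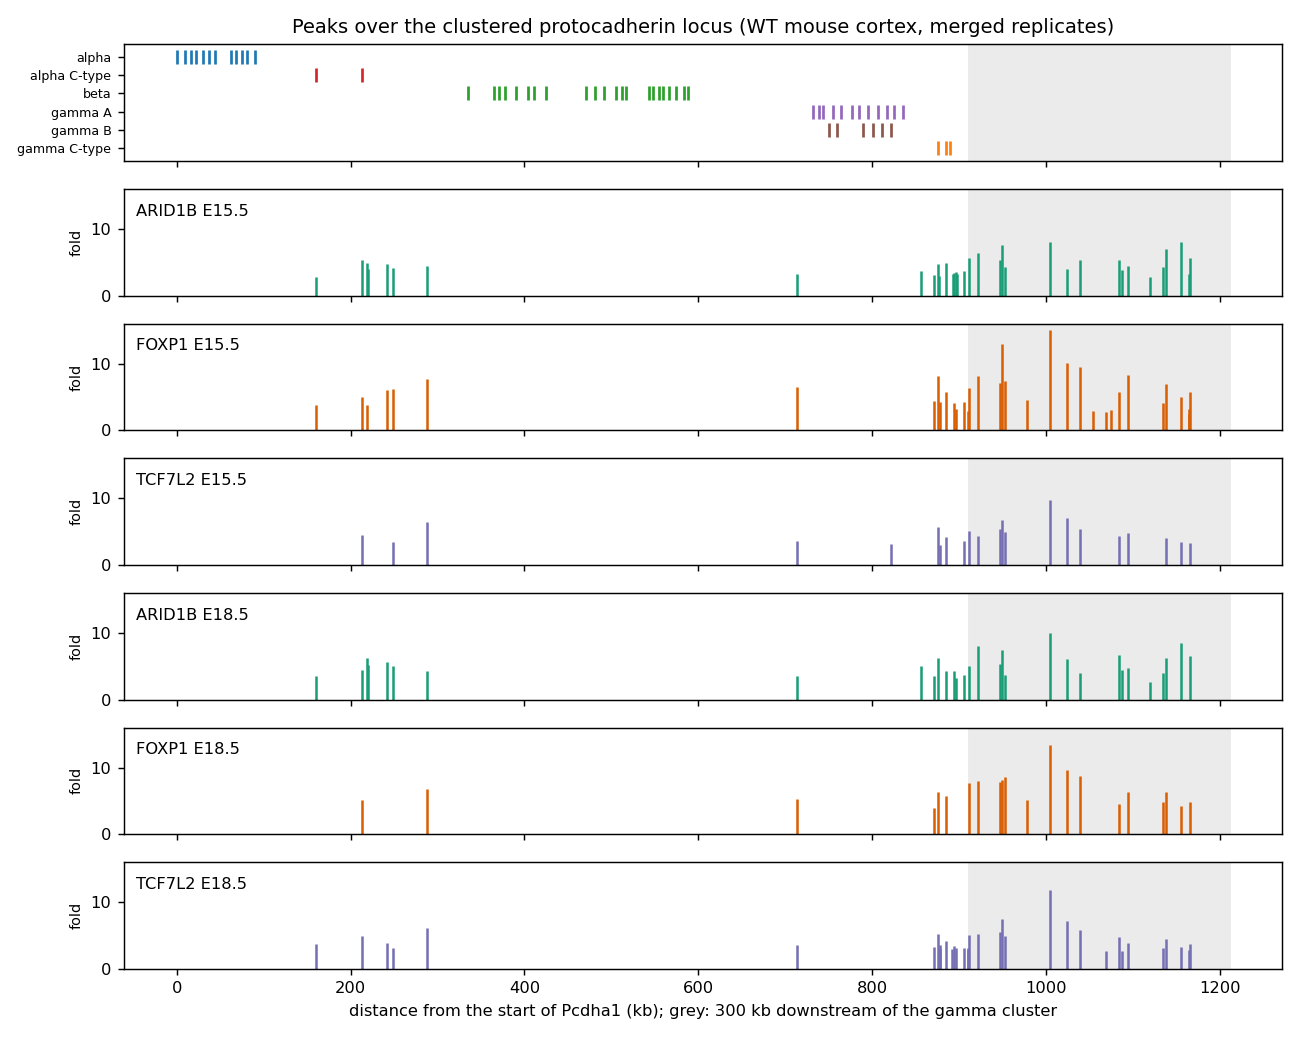
Map of the locus with distance from the start of Pcdha1 in kb on the horizontal axis; the top row marks the start of each member by subcluster, and each line in the 6 lower rows stands at the strongest summit of a locus with its highest fold enrichment in that list (vertical axis, fold over background). The stretches under the variable alpha, beta and gamma genes are empty but for 1 TCF7L2 peak at E15.5, and the lines gather at the C-type genes and in the grey 300 kb downstream of the gamma cluster.

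The emptiness was not limited to the promoter windows. The stretch of 94.4 kb that holds the variable alpha exons and their promoters (chr18:36928184-37022623, mm10) had 0 peaks in all 6 lists. At the average density of each list over the genome, that length would hold between 0.862 and 2.47 peaks, so the absence there is of few peaks. The beta genes and their promoters covered 262 kb (chr18:37262938-37524479), also with 0 peaks in all 6 lists, where the average density would give between 2.39 and 6.85. The variable gamma exons and promoters, 110 kb (chr18:37659793-37770124), held 0 peaks in 5 lists and 1 in the TCF7L2 E15.5 list, against 1.01 to 2.89 at the average density.

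That single peak lay at Pcdhgb7, a gamma B gene (chr18:37751554-37751814). It had a fold enrichment of 3.16 and a -log10 p of 6.48, and its summit was 79 bp after the TSS. Of all genes with a promoter peak in that list, 0.739% had a lower fold, so it was among the weakest promoter peaks called. The TCF7L2 list of E18.5 had no peak there. The lowest fold was 2.41 in that list and 2.64 in the E15.5 list, and why the peak was in 1 of them only was not tested.

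Reads that map to more than 1 place are lost before peak calling, so the members' sequence was compared with the rest of the genome. The study's reads were 50 bases long and were kept at a mapping quality of at least 30. Of all 50-base sequences in the promoters of the variable members, 1.48% occurred again elsewhere in the reference genome on either strand, and 31 of the 52 had no repeated 50-base sequence in the promoter at all. The highest share in 1 promoter was 13.3%, at Pcdhb9, and the C-type promoters had 0. The first exons of the variable members repeated more often, 6.3% in all, with 4.43% for the beta, 1.15% for the gamma A and 10.3% for the gamma B genes. All 12 of the alpha genes were over 10%, and the highest share was 26.6% at Pcdha6. Most of each variable promoter and first exon was therefore unique at the read length, for exact copies, while copies with mismatches were not counted. The part of repeated sequence in the lack of peaks was not tested.

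The start sites of the variable members also differed in base composition from those of most genes. In the 300 bases around each TSS, 250 before and 50 from it on, the median G+C content was 40.0% over 74 windows of variable members, 55.2% over 12 windows of C-type members and 55.0% over 93526 windows of all protein-coding genes. The ratio of observed to expected CpG dinucleotides, which is high in CpG islands, had a median of 0.565 in the windows of the variable members, 0.609 in those of the C-type members and 0.456 in those of all genes. Taking for each gene the start site with the highest ratio turned that order, with medians of 0.549 over the variable members, 0.623 over the C-type members and 0.695 over all genes, which have more annotated start sites each. Within the variable groups this per-gene ratio had a median of 0.687 for alpha, 0.439 for beta, 0.556 for gamma A and 0.778 for gamma B genes, and none of these groups had a promoter peak except the gamma B group with its 1 gene. The low G+C content thus went with the lack of peaks, and its part in the result was not tested.

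**Figure D3:**
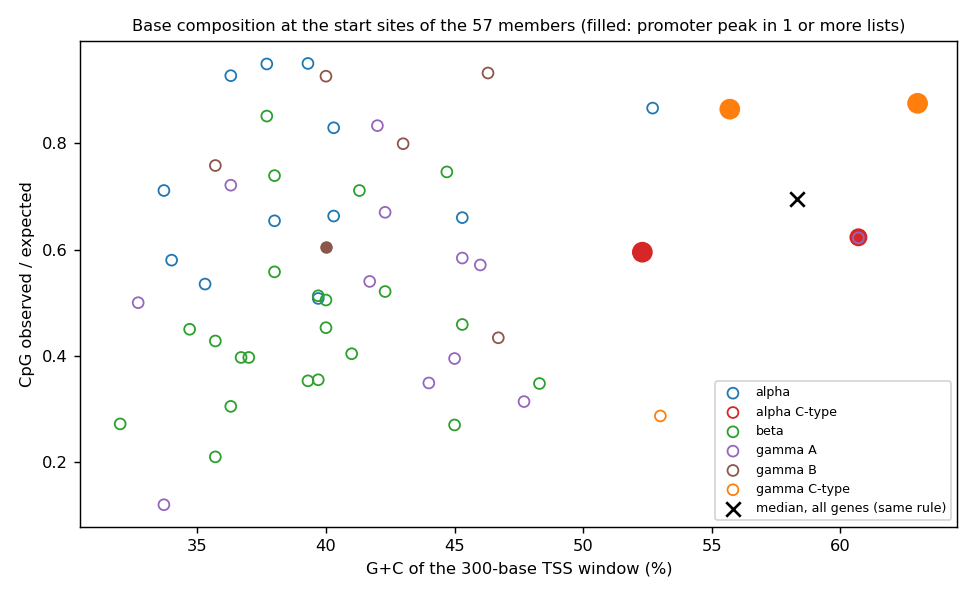
G+C content (horizontal axis, percent) and ratio of observed to expected CpG (vertical axis) of the 300-base window at a start site of each of the 57 members, using the window with the highest ratio for genes with several start sites; colours mark subclusters, open circles members with no promoter peak, filled circles members with 1, their area growing with the number of lists, and the cross the medians over all protein-coding genes by the same rule, 58.3% and 0.695. The C-type members with peaks have a G+C content over 50%, and C-type Pcdhgc5, which has no promoter peak, has the lowest CpG ratio of the C-type genes, 0.287.

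A G+C-rich start site did not always go with a peak. Pcdhga9, a gamma A gene, has a start site with 60.7% G+C and a CpG ratio of 0.622, close to the 60.7% and 0.623 of the C-type gene Pcdhac1, and had no promoter peak in any list. That start site lies downstream of another start site of Pcdhga9, whose window had a lower G+C content and a CpG ratio of 0.351. One Pcdha11 record has a start site with 52.7% G+C and a CpG ratio of 0.866 and likewise had none. It is the most downstream start site of that record, and the windows of the others had a lower G+C content and lower CpG ratios. Neither gene was therefore G+C-rich at all of its start sites.

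Motif matches were few. The CTCF core consensus, searched by its letters on both strands with no mismatch, was at the start sites of 0 of 57 members and of 1.18% of all protein-coding genes. Over windows it was in 0 of 86 member windows and in 0.494% of all windows, a share at which 0 matches says little. A search without mismatches also misses sites that differ by a letter, so whether the members hold CTCF sites was not tested. The forkhead core TGTTTAC was at 3.51% of the members, namely Pcdhac2 and Pcdhb5, and at 9.12% of all genes, or in 2.33% of the member windows and 3.2% of all windows. The TCF core ATCAAAG was at 7.02% of the members, namely Pcdhb7, Pcdhb20, Pcdhgb1 and Pcdhgb5, none of which had a peak of TCF7L2, and at 9.79% of all genes. Over windows the order was turned, 6.98% against 3.28%, with Pcdhgb1 and Pcdhgb5 each counted at a pair of overlapping windows.

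Of the C-type members, Pcdhac2, Pcdhgc3 and Pcdhgc4 had promoter peaks in all 6 lists, as did 51.8% of all protein-coding genes. Pcdhgc3, a gene of the gamma array known for its part in dendrite branching of cortical neurons, had fold enrichments of 4.81 for ARID1B E15.5, 8.1 for FOXP1 E15.5 and 5.67 for TCF7L2 E15.5. The later lists gave 6.31 (ARID1B), 6.3 (FOXP1) and 5.25 (TCF7L2). It had the highest fold of all members in 5 lists, the exception being ARID1B E15.5, and the summits lay at -144 to 44 bp from the nearest TSS, negative values being upstream. For ARID1B E18.5, 63.4% of all genes with a promoter peak had a lower fold than Pcdhgc3, and in the other 5 lists between 21.1% and 38.1% did, so it was an ordinary promoter peak within each list.

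Pcdhac2, an alpha C-type gene that serotonergic neurons need for the even spread of their axons, had folds of 5.35 (ARID1B), 5.06 (FOXP1) and 4.52 (TCF7L2) in the earlier lists. In the later lists the values were 4.49, 5.12 and 4.93 in the same order. Its summits lay 168 to 490 bp after the TSS, inside the first exon, and the share of genes with a lower promoter fold ran from 9.66% for FOXP1 E18.5 to 52.5% for ARID1B E15.5. Pcdhac2 was the highest member in the ARID1B E15.5 list.

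Pcdhgc4, which is known to be needed for the survival of inhibitory interneurons, had folds of 4.9, 5.82 and 4.21 for ARID1B, FOXP1 and TCF7L2 in the earlier lists. The later folds were 4.35, 5.71 and 4.16. Between 11.8% and 40.5% of the genes with a promoter peak had a lower fold than Pcdhgc4, and the strongest summits lay at -140 to 306 bp from the nearest TSS.

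Pcdhac1, the other alpha C-type gene, had weaker peaks and only in 4 lists. Its folds were 2.86 for ARID1B E15.5, 3.8 for FOXP1 E15.5, 3.51 for ARID1B E18.5 and 3.72 for TCF7L2 E18.5, with -log10 p values of 6.36, 10.1, 8.05 and 10.9. Only 1.19% to 9.16% of genes with a promoter peak had a lower fold, and the summits fell 16 to 57 bp after the TSS. It was not in the TCF7L2 E15.5 list and not in the FOXP1 E18.5 list, the 2 shortest lists.

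Pcdhgc5, the last gene of the gamma array, had no promoter peak in any list. Its start sites had the lowest CpG ratios of the C-type genes, from 0.139 to 0.287, at a G+C content of 53.0% to 54.7%. The highest windows of the others had 0.875 (Pcdhgc3), 0.864 (Pcdhgc4), 0.623 (Pcdhac1) and 0.595 (Pcdhac2). Pcdhgc4, its upstream neighbour, was the last gamma gene with a promoter peak.

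**Figure D4:**
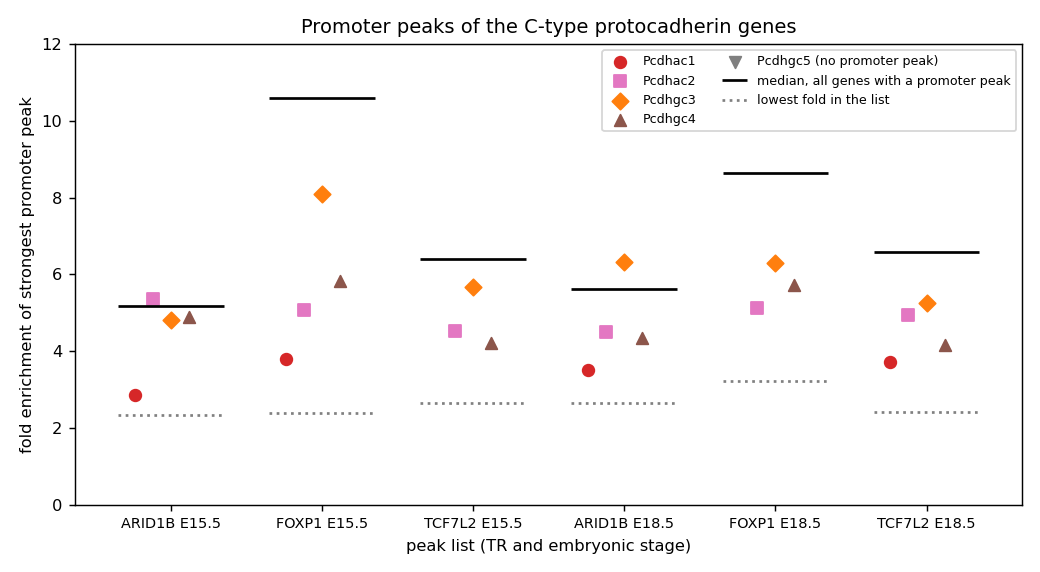
Fold enrichment of the strongest promoter peak (vertical axis) of each C-type gene in each of the 6 peak lists (horizontal axis); solid lines give the median over all protein-coding genes with a promoter peak, dotted lines the lowest fold of the list, and each point is 1 merged list with no error. Pcdhac1 has the lowest points, 2.86 to 3.8, and all but Pcdhac2 in ARID1B E15.5 and Pcdhgc3 in ARID1B E18.5 lie below the median of all genes.

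Over the members with a promoter peak, the median fold was 4.86, 5.44 and 4.36 for ARID1B, FOXP1 and TCF7L2 in the earlier lists. The medians over all genes with a promoter peak in those lists were 5.17, 10.6 and 6.4. At E18.5 the member medians were 4.42, 5.71 and 4.54, and those of all genes 5.61, 8.65 and 6.57. The member median was lower than that of all genes in each of the 6 lists.

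First exons gave nearly the same picture as promoters. A first-exon peak was found for 5 of 57 members in ARID1B E15.5 (57.1% of all protein-coding genes), 5 in FOXP1 E15.5 (61.0%) and 4 in TCF7L2 E15.5 (56.7%). At E18.5 the counts were 5 for ARID1B (55.9%), 3 for FOXP1 (54.1%) and 5 for TCF7L2 (60.5%). All 3 TRs were found at 3 members at E15.5 (54.3% of all genes) and at 3 members at E18.5 (51.5%). The only variable member among them was Pcdhgb7, with the peak already described.

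The first-exon counts included Pcdhgc5 in 4 lists, by peaks 2568 to 5798 bp after its nearest TSS. These peaks overlapped the first exon of an annotated transcript of Pcdhgc5 that is not of the protein-coding type, and they were no longer counted when only protein-coding transcripts were used. They belonged to a group of peaks around the first of the 3 shared gamma exons (chr18:37825021-37825079), which 21 of 21 gamma members use. The strongest locus there (chr18:37823873-37826001) was in 4 lists, with folds of 3.48 (ARID1B E15.5), 4.18 (FOXP1 E15.5), 4.35 (ARID1B E18.5) and 3.39 (TCF7L2 E18.5), and its strongest summit lay within that exon.

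The stages were compared by the members each list named. For ARID1B, 4 members had a promoter peak at both stages and 0 at 1 stage only. When only peaks with a fold of 3.21 or more were counted, Pcdhac1 had an ARID1B promoter peak at E18.5 only. For FOXP1, 3 members had one at both stages and 1, Pcdhac1, at E15.5 only. For TCF7L2, 3 members had one at both stages, Pcdhgb7 at E15.5 only and Pcdhac1 at E18.5 only. Of all protein-coding genes with a promoter peak at either stage, 93.3% had one at both for ARID1B, 88.7% for FOXP1 and 92.6% for TCF7L2, so keeping a peak at both stages was common to most genes. Over all protein-coding genes, FOXP1 had 1524 genes with a promoter peak at E15.5 only and 16 at E18.5 only, and TCF7L2 had 72 and 924, so the direction at Pcdhac1 was that of the lists as a whole. Whether any member differed between stages was not tested, since each stage had 1 merged list per TR.

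Within the clusters, most peaks of each list but FOXP1 E18.5, with 4 of 8, lay at the C-type ends. From the Pcdhgc3 promoter to the end of the gamma cluster, 37.5 kb (chr18:37804364-37841873), there were 12, 11 and 6 peaks for ARID1B, FOXP1 and TCF7L2 in the earlier lists, and 11, 3 and 16 in the later. This was 8.76 to 21.9 times the average density of the same lists over the genome, and the peaks covered 5.99% to 22.1% of the stretch. From the Pcdhac1 promoter to the end of the alpha cluster, 99.6 kb (chr18:37088013-37187657), there were 6, 6 and 2 peaks at the earlier stage and 6, 1 and 6 at the later, in the same order, or 1.1 to 3.09 times the average. Just upstream of the Pcdhgc3 stretch, 2 loci lay beyond the last variable gamma exon, 1 in both ARID1B lists (chr18:37786549-37786944, folds 3.66 and 5.05) and 1 in all lists but TCF7L2 E15.5 (chr18:37800715-37801259, folds 3.13 to 4.43). Taken from the first to the last clustered gene, 912 kb, the density was 0.917 to 1.41 times the average, so the whole locus was neither empty nor dense and the peaks were unevenly placed within it.

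When peaks of the 6 lists that overlapped were merged into loci, the stretch from the Pcdha1 promoter to the end of the gamma cluster held 24 loci, of which 5 were in all 6 lists and 7 in 1 list. The 5 were the promoters of Pcdhac2, Pcdhgc3 and Pcdhgc4, the promoter of Taf7, and 1 locus between the alpha and beta clusters. Taf7 codes for a subunit of the general transcription factor TFIID and is no protocadherin. Its promoter, between the beta and gamma clusters, had folds of 3.3, 6.45 and 3.68 at the earlier stage and 3.51, 5.27 and 3.5 at the later, and was the only peak in the 137 kb between those clusters in each list.

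The locus between the alpha and beta clusters (chr18:37216877-37218565) was the only one in that 77.3 kb interval and did not overlap a promoter of any annotated gene. Its folds at E15.5 were 4.55 for ARID1B, 7.72 for FOXP1 and 6.5 for TCF7L2. The later lists gave 4.35, 6.74 and 6.13. For FOXP1 E18.5 and for TCF7L2 at both stages, these folds were higher than those of every member promoter in the same list. The locus lay 39668 bp from the nearest TSS of any gene, that of Gm10544. The CTCF core consensus was within the 200 bases around a summit of this locus in 2 of the 6 lists, while over whole lists 1.07% (ARID1B E18.5) to 4.91% (FOXP1 E15.5) of peaks held it there. The enhancer known as HS5-1, which acts on the alpha promoters, lies between these clusters, and whether this locus is that element was not tested.

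Inside the alpha cluster beyond Pcdhac2, 4 more loci were found, in 2 to 5 lists each. The one nearest the end of the cluster (chr18:37177920-37179332, start site of Gm10544) was in 5 lists, with folds of 4.19, 6.2 and 3.47 for ARID1B, FOXP1 and TCF7L2 in the earlier lists and, in the later, 5.05 for ARID1B and 3.17 for TCF7L2. None of the alpha loci overlapped the 3 shared alpha exons, which 14 of 14 alpha members use.

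The 300 kb downstream of the gamma cluster (chr18:37841874-38141873), where enhancers of the beta and gamma genes are known to lie, was dense in peaks of every TR. It held 17, 24 and 15 peaks for ARID1B, FOXP1 and TCF7L2 at the earlier stage and 18, 16 and 22 at the later. The density was 2.16 (ARID1B E15.5) to 5.84 (FOXP1 E18.5) times the average of the same list over the genome, and the peaks covered 2.8% to 5.56% of the span. The peaks merged into 22 loci, of which 13 were in all 6 lists, 3 in 1 list, and 16 were distal, meaning that they did not overlap the 2000 bp upstream of any TSS of any gene. Of the 16 distal loci, 10 were in all 6 lists. The density above includes peaks at the promoters of other genes. Distal peaks alone numbered 14, 18 and 11 for ARID1B, FOXP1 and TCF7L2 at the earlier stage and 14, 12 and 18 at the later. They were not set beside the density of distal peaks over the genome.

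**Figure D5:**
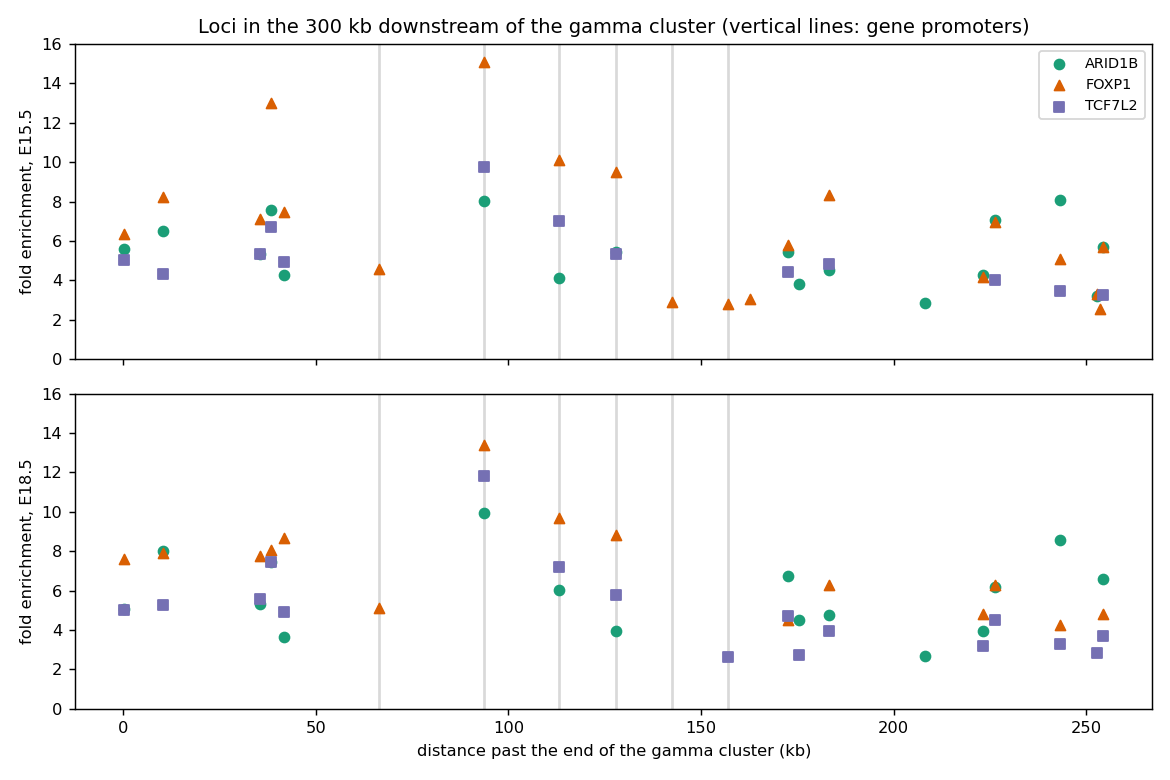
Fold enrichment (vertical axes) of each locus in the 300 kb downstream of the gamma cluster against its distance past the end of that cluster in kb (horizontal axis), for ARID1B, FOXP1 and TCF7L2 at E15.5 (top) and E18.5 (bottom); grey lines mark loci at gene promoters, and each point is 1 merged list with no error. The Diaph1 promoter at 93.7 kb has the highest point of each TR except ARID1B E15.5, and loci away from promoters lie on both sides of the promoters.

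The highest peaks of the span for FOXP1 and TCF7L2, and for ARID1B at E18.5, lay at the promoter of another gene. The locus at the Diaph1 promoter, 93.7 kb past the gamma cluster, had folds of 8.01, 15.1 and 9.74 for ARID1B, FOXP1 and TCF7L2 at the earlier stage and 9.96, 13.4 and 11.8 at the later. Diaph1 codes for a formin that nucleates actin filaments. It was the highest peak of the span in 5 lists, and between 94.1% and 99.3% of the peaks in each list had a lower fold.

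The shared promoter of Hdac3, a histone deacetylase gene, and Rell2, at 113 kb, had folds of 4.1, 10.1 and 7.02 at the earlier stage and 6.03, 9.68 and 7.22 at the later. The promoter of Fchsd1, which codes for a membrane-bending protein, at 128 kb, had 5.44, 9.49 and 5.35 at the earlier stage and 3.93, 8.8 and 5.8 at the later. Arap3, which codes for a protein that turns off small GTPases, had weak promoter peaks in FOXP1 E15.5, with folds of 2.91 and 2.78, and in TCF7L2 E18.5, with 2.63. Of the 5 protein-coding genes with a start site in the span, 4 had a promoter peak in each ARID1B list, in TCF7L2 E15.5 and in FOXP1 E18.5, and 5 in the other lists.

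Among the distal loci, the strongest for FOXP1 at E15.5 lay in an intron of Diaph1 at 38.4 kb (chr18:37879688-37880642), with folds of 7.57, 13.0 and 6.71 for ARID1B, FOXP1 and TCF7L2 at the earlier stage and 7.43, 8.06 and 7.44 at the later. It was among the 3 highest peaks of the span in 4 lists. For ARID1B, the locus at 243 kb (chr18:38084767-38085684) had a fold of 8.1 at E15.5, beside 8.01 at the Diaph1 promoter, and at E18.5 its 8.56 was exceeded in the span by the Diaph1 promoter alone. In the FOXP1 lists that locus had folds of 5.06 and 4.24, and in the TCF7L2 lists 3.47 and 3.28, at the earlier and later stage, and these were not compared with the ARID1B values.

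The locus at 10.4 kb, in Diaph1, was the third highest of the ARID1B E18.5 list in the span, with 7.99, and had 6.5, 8.23 and 4.31 in the earlier lists and 7.91 for FOXP1 and 5.25 for TCF7L2 in the later. The locus nearest the clusters straddled the end of the last shared gamma exon (chr18:37841226-37843124) and had 5.61, 6.33 and 5.04 at the earlier stage and 5.05, 7.62 and 5.04 at the later. The other distal loci in all 6 lists stood at 35.5 and 41.8 kb, both in Diaph1, and at 173, 183, 226 and 254 kb. At the 41.8 kb locus the CTCF core consensus was near a summit in 4 of the 6 lists, and at every other locus of the span in 0.

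The non-clustered delta protocadherins are relatives encoded outside the alpha, beta and gamma clusters and are not subject to promoter choice. They had promoter peaks in 7 to 9 of 10 genes, beside 55.0% to 61.8% of all protein-coding genes, a difference that was not tested. The counts were 8, 9 and 8 for ARID1B, FOXP1 and TCF7L2 at the earlier stage and 8, 7 and 9 at the later, with median folds of 5.57, 9.11 and 6.29 at the earlier stage and 5.26, 7.47 and 6.35 at the later. Pcdh9 had the highest fold of the 10 for ARID1B at E15.5, 9.61, and Pcdh20 had no promoter peak in any list. Pcdh11x had one in 2 lists and Pcdh19 in 5.

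The olfactory receptor genes, another family in which neurons choose among arrayed promoters but which is expressed mainly in the nose, had promoter peaks in 5, 4 and 1 of 1135 genes at the earlier stage and in 5, 2 and 4 at the later. The highest share was 0.441%. The variable protocadherins are known to be expressed in the developing cortex, each neuron using a small choice of them, and expression was not measured here. Their share of 0% to 1.92% of 52 genes was nearer to that of the olfactory receptors than to that of all protein-coding genes. Whether binding limited to the neurons that use a given promoter would be called in whole cortex was not tested.

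Genes that act on protocadherin promoter choice and in signalling from the proteins had promoter peaks in nearly all cases, beside 55.0% to 61.8% of all protein-coding genes, a difference that was not tested. Of 12 chromatin factor genes of promoter choice, all 12 had promoter peaks in each of the 6 lists, among them Ctcf, with folds of 7.66, 15.3 and 7.13 at the earlier stage and 6.59, 11.2 and 7.55 at the later. Of 11 kinase and actin regulator genes that act downstream of the proteins, 11, 11 and 10 had promoter peaks at the earlier stage and 11, 11 and 10 at the later. Ptk2b, which codes for a kinase that protocadherin cytoplasmic domains are known to bind and inhibit, was the one without a TCF7L2 peak, and its folds were 3.48 and 4.35 for ARID1B and 3.92 and 3.79 for FOXP1 at the earlier and later stage.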

How the data were processed

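ChIP-seq for ARID1B, FOXP1 and TCF7L2 was done by the authors in cortex of WT mice, with inputs, at both stages. Per the study's methods, single reads of 50 bases were aligned to mm10 with BWA 0.7.15, filtered with SAMtools at a mapping quality of 30, and peaks were called with MACS2 (2.2.7 in the submitters' notes) on merged replicates at a q-value of 0.01 with a fixed extension of 200 bp and no local background, which leaves local input differences uncorrected. The submitters' notes also name deepTools 3.4.3. No source read for this work states how duplicate reads were treated. The deposited columns used were the fold enrichment, a ratio to background, the -log10 p-value and the -log10 q-value of each peak, all as the authors' peak caller wrote them. No read counts or per-replicate peaks were analysed here.

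Peaks on the main chromosomes were overlapped by at least 1 base with GENCODE vM21 windows (2000 bp upstream of every TSS, first exons of every transcript) in Python 3.11.15 with pandas 2.3.3 and NumPy 2.4.6, and checked on simulated intervals. The share of repeated 50-base sequences, G+C, CpG ratio and motif matches were computed from the GRCm38 reference. Named were all C-type members, members with peaks in all 6 lists, the 3 highest members of each list, genes with promoters in the span and its 3 highest peaks per list. Members without a peak were counted and not all named, and those set beside the C-type genes for their base composition or motifs (Pcdhga9, Pcdha11, Pcdhb5, Pcdhb7, Pcdhb9, Pcdhb20, Pcdhgb1, Pcdhgb5, Pcdha6), as well as Pcdhgb7, were chosen after their values were seen. The members and gene lists were chosen with earlier results of these data known. The alternatives varied the windows, the peak threshold, the transcripts and the span.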

Additional observations from a re-analysis of the deposited data

How the results depend on the processing

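No paired analysis was possible because each list merges both replicates, and for the same reason leaving out a replicate could not be done, so no count has a replicate error. Of 120 alternative values, 83 stayed within 1.5 times the reported count, or equal for medians, and 37 did not. The number of variable members with a promoter peak was 0 or 1 under every alternative run. The 1 peak, at Pcdhgb7, was no longer counted at a -log10 p of at least 15, with the summit in the promoter, or at a common fold floor of 3.21. With a -log10 p of at least 15, promoter peaks were at 3 (ARID1B E15.5), 3 (FOXP1 E15.5), 1 (TCF7L2 E15.5), 1 (ARID1B E18.5), 0 (FOXP1 E18.5) and 2 (TCF7L2 E18.5) members, beside 40.1% to 55.0% of all protein-coding genes, promoters with all 3 TRs at 1 (E15.5) and 0 (E18.5), and first-exon peaks at 3, 3 and 1 members for ARID1B, FOXP1 and TCF7L2 at the earlier stage and 1, 0 and 2 at the later. The span then held 11, 13 and 7 peaks at the earlier stage and 10, 8 and 10 at the later. When the summit had to lie in the promoter, the counts were 2, 2 and 2 at the earlier stage and 1, 1 and 2 at the later, since many summits fall just past the TSS, beside 44.8% to 50.3% of all genes, all 3 TRs were at 1 member at E18.5, and the median folds were 3.84, 6.96 and 4.94 at E15.5 and 3.37 (ARID1B) and 4.16 (TCF7L2) at E18.5. The first 100 kb of the span held 6, 7 and 6 peaks at the earlier stage and 7, 8 and 7 at the later. With the common fold floor of 3.21, TCF7L2 E18.5 kept 13 peaks in the span. Windows of 1000 bp or of 500 bp either side of the TSS, protein-coding transcripts and distal peaks alone moved no count by more than 1.5 times.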
